A study of Homo sapiens with 17 samples.

Results

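The RNA helicases of the DDX and DHX families were followed through an acRIP-seq experiment in HEK293T cells, a line derived from human embryonic kidney. Members were all genes of the count table whose symbol is DDX or DHX followed by a number and at most 1 letter, with DDX5, DDX17 and DDX58 left out. This gave 54 of 23368 genes, 38 named DDX and 16 named DHX. In acRIP-seq, poly(A) RNA is incubated with an antibody against N4-acetylcytidine (ac4C), a modified base written by NAT10, and the RNA that is pulled down is sequenced. The genotypes were WT and siTDP43, the latter treated with siRNA against TDP43, an RNA-binding protein whose gene is TARDBP. From each, RNA was sequenced without antibody (input), after the ac4C antibody (IP) and after a control immunoglobulin (IgG). Each group had 3 libraries except WT IgG, which had 2. All libraries came from 1 cell line, and the labels name no control siRNA for WT, so the knockdown, the transfection and any batch cannot be told apart. The labels do not say whether libraries of a group came from separate cultures, so p-values measure the spread between these libraries, which may be technical.

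These proteins use ATP to unwind or rearrange RNA and to move proteins off it. DDX proteins mostly open short duplexes locally, and DHX proteins mostly move along a strand. They act at nearly every step in the life of an RNA, from transcription of ribosomal RNA and splicing to export, translation and decay, and a few sense viral RNA. DDX26B carries a family name only by history: it is now INTS6L, a relative of a subunit of the Integrator complex. DDX11 and its pseudogene copy DDX12P are named for a DNA helicase that acts in chromosome cohesion.

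Total counts were 24542434 to 36583436 in the 6 inputs, 8610070 to 21066215 in the 6 IP libraries, 9022250 to 9466855 in WT IgG and 3013989 to 3436811 in siTDP43 IgG, so values in siTDP43 IgG rest on the fewest reads. TARDBP itself was lower in the siTDP43 inputs, at 67.2% of the WT level (log2 fold change -0.57, SE 0.0451, adjusted p = 6.55e-13). An exact permutation test gave p = 0.1, the smallest that 3 libraries against 3 allow. Of the HEK293T markers, NEFM and NEFL were expressed and PAX2 and LHX1 were low, at 0.885 and 0.855 CPM (counts relative to the TMM-scaled library total) in WT input. Markers of blood, endothelium and liver were at or near 0 in the inputs, and those of fibroblasts (COL1A1 7.34 CPM, LUM 2.59 CPM) and muscle (DES 3.10 CPM) were low in WT input. In bulk RNA, fewer cells that express a gene and less RNA per cell cannot be told apart.

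Of the 54 helicases, 51 passed the filter on low counts in at least 1 fit and 46 in all 9 comparisons. DDX3Y, the Y-chromosome copy of DDX3X, and DDX53 had no count in any library, and DDX43 had 1 count in all. Another 5 were sparse (DDX4, DDX25, DDX39B, DDX60L and DHX58). DDX39B, an export helicase, had 0 to 51 counts per library. It shares 86.0% of its exon bases with a readthrough gene on the same strand and is also listed on 7 alternate contigs, so its counts cannot stand for its mRNA. DHX16, a helicase of splicing, is listed on 7 alternate contigs too, and the effect on its counts was not tested. DDX11 and DDX12P share 16.6% of all windows of 100 exon bases letter for letter, and DDX19A and DDX19B share 17.6% and 28.7% of theirs. The study's reads were longer and paired, and it counted those that mapped uniquely. How far the shared windows affect these counts was not tested. The exons of DHX32 overlap BCCIP on the opposite strand over 13.3% of their length, and those of DDX54 overlap CCDC42B over 11.4%. The library kit does not mark strand, so reads of such partners cannot be told apart.

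One sequence bears on the pull-down. The study describes a motif of acetylated transcripts, TCCCAGCT in DNA letters, found in these same libraries. DDX51, a member that the ac4C antibody recovered far above both controls in WT, holds it 3 times. Windows around 2 of these are shown as matches to the motif in this transcript. Shown too is 1 window each of DDX12P and its protein-coding copy DDX11, because both hold the same letters. Each is 28 bases, written as DNA in the direction of the transcript from GRCh37, with the motif in capitals.
DDX51, chr12:132624186-132624213, minus strand, exon 14, coding: ggaggccctgTCCCAGCTggaggagtct
DDX51, chr12:132621576-132621603, minus strand, exon 15, untranslated: gcacaccttgTCCCAGCTaaaaccctgg
DDX11, chr12:31241992-31242019, plus strand, exon 7, coding: tcggacacacTCCCAGCTggcccagttt
DDX12P, chr12:9585970-9585997, minus strand, exon 7: tcggacacacTCCCAGCTggcccagttt

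TCCCAGCT, searched on the transcript strand within exons, was present in 9 of the 54 helicases (16.7%), against 19.6% of the 15165 genes of the 17-library fit. Among 2373 genes with 4000 to 5500 exon bases, the length class of DDX51, 1.1% held it 3 or more times. The motif was found in these same libraries and DDX51 was picked for its IP level, so this share supports nothing. TGTGTGTG, the repeat that TDP43 is known to bind in RNA as UG repeats, was in the exons of 3 helicases (5.56%) and of 18.6% of all genes in that fit. A match is a description of the letters and not a measured site.

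The first comparison asked how helicase mRNA differed between siTDP43 and WT input. Of the 48 helicases tested, 39 were higher (81.2%) and 6 lower (12.5%) at an adjusted p under 0.05, against 38.6% and 40.6% of the 14036 genes tested. The median log2 fold change was 0.58 over the helicases and -0.05 over all genes. One of the 39, DDX60L, passed the filter through siTDP43 alone. The libraries did not overlap for 37 of the higher and all 6 of the lower helicases, and 38.6% and 41.7% of all genes tested did not overlap in those directions. As a share of all counts, the 54 genes took 0.281 to 0.2855% in the WT inputs and 0.5015 to 0.51% in the siTDP43 inputs.

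DHX9, which unwinds double-stranded RNA and RNA-DNA hybrids, rose most among members with enough reads to be ranked. DHX9 (chr1:182808439-182857117, hg19) had 67.9, 68.3 and 67.7 CPM in the WT inputs and 350, 338 and 350 CPM in the siTDP43 inputs. This was 5.12-fold (log2 2.36, SE 0.0421, adjusted p = 3.81e-29). DDX3X (chrX:41192651-41209524), which helps ribosomes start on structured mRNAs, had 109, 112 and 115 CPM in WT and 492, 496 and 505 CPM in siTDP43 (log2 2.16, SE 0.0403). DDX26B (chrX:134654555-134716460) went from 7.56, 8.10 and 7.97 CPM to 39.6, 35.3 and 38.7 CPM (log2 2.27, SE 0.0876). In each of these genes every siTDP43 library lay more than 4-fold above every WT library.

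**Figure D1:**
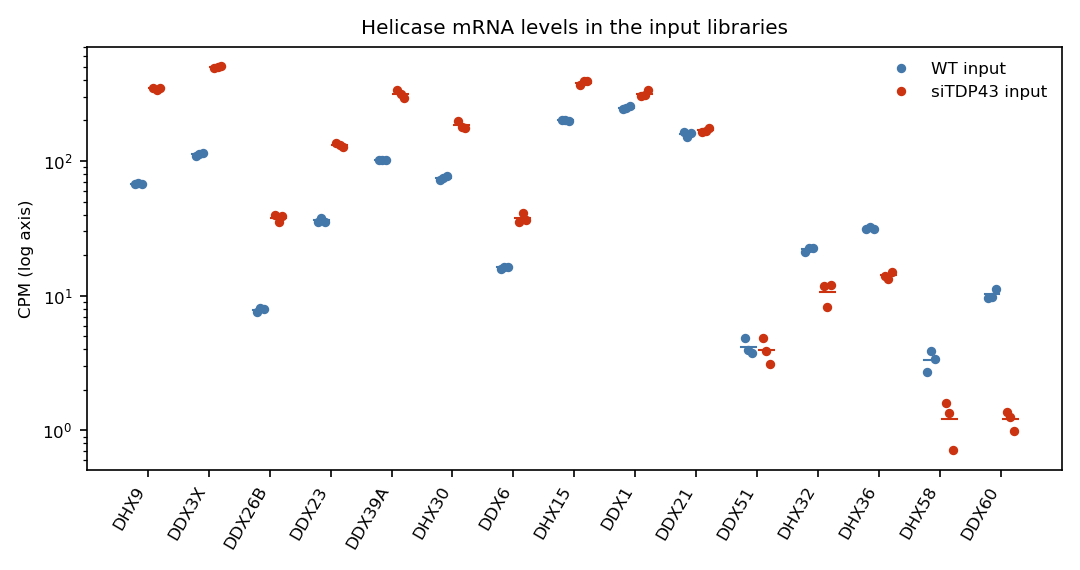
CPM (log axis) of 15 helicases in each of the 3 WT and 3 siTDP43 input libraries; points are libraries and the short line is their mean. DHX9, DDX3X and DDX26B show the widest upward gaps, DDX51 overlaps, and DHX32, DHX36, DHX58 and DDX60 lie lower in siTDP43.

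The helicases of splicing were higher in 9 of 10 cases and lower in none. Scaling by total count left 6 higher, and removing a GC trend from each library gave 7 higher and 1 lower (DDX46, from 0.12 to -0.17). DDX23, which acts in assembly of the active spliceosome, had 35.2, 37.7 and 35.5 CPM in WT and 136, 132 and 127 CPM in siTDP43 (log2 1.87). DHX8, which releases finished mRNA from the spliceosome, rose by 1.40 on the log2 scale, and DHX15, which takes spliceosomes apart, rose by 0.94. DHX38, a remodelling factor of the catalytic spliceosome, rose by only 0.34, and DHX35 did not pass (0.13, adjusted p = 0.171).

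In ribosome biogenesis, 15 of 16 were higher and none lower, but most of these changes were small, with a median log2 of 0.53. With the GC trend removed the split was 11 higher and 1 lower. DDX47 led with 95.7, 102 and 102 CPM in WT against 291, 296 and 296 CPM in siTDP43 (log2 1.56, SE 0.0427). DDX21, which couples transcription and processing of ribosomal RNA, was near the threshold (log2 0.10, adjusted p = 0.0426). It lost its call without WT input library 2 (0.06) or 3 (0.11), or without siTDP43 input library 2 (0.11) or 3 (0.07), and turned to -0.18 (adjusted p = 6.18e-05) once the GC trend was removed. DDX51 had 4.84, 3.98 and 3.74 CPM in WT and 4.82, 3.91 and 3.10 CPM in siTDP43, and the groups overlapped (log2 -0.07, SE 0.193, adjusted p = 0.74).

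Helicases of mRNA export that could be tested were higher in 3 of 3 cases. DDX39A, which loads export factors on mRNA, had 102 CPM in each WT input and 335, 316 and 294 CPM in siTDP43 (log2 1.64). DDX19A (0.74) and DDX19B (0.42), which act at the nuclear pore, rose less. Both mitochondrial members rose, DDX28 by 1.59 and DHX30 by 1.32, and both are known to assist assembly of the mitochondrial ribosome.

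Among the helicases of translation and mRNA fate, DDX6, a factor of mRNA decay and storage, went from 15.8, 16.4 and 16.5 CPM to 35.4, 40.8 and 36.7 CPM (log2 1.22). DHX29, which assists ribosome scanning, rose by 1.35. DHX36 (chr3:153993457-154042286), which unwinds G-quadruplexes, moved the other way, from 31.2, 32.2 and 31.1 CPM to 13.9, 13.4 and 15.1 CPM (log2 -1.15, SE 0.0824, adjusted p = 7.2e-14).

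The antiviral members held the largest fall. DDX60 (chr4:169137442-169239958), an interferon-induced factor of RIG-I signalling, had 9.62, 9.86 and 11.2 CPM in WT and 1.36, 1.26 and 0.996 CPM in siTDP43 (log2 -3.07, SE 0.184, adjusted p = 8.1e-16). DHX58, which encodes the viral RNA sensor LGP2, had 82, 153 and 118 counts in WT and 50, 34 and 20 counts in siTDP43 (log2 -1.45, SE 0.274). DDX60L, the neighbouring paralogue of DDX60, had no count in the WT inputs and 19, 14 and 30 counts in the siTDP43 inputs, which made it at least 8.46-fold higher against a floor of 3 counts per library. So 2 of these 3 genes were lower and 1 was higher, and no 100-base window is shared exactly between DDX60 and DDX60L.

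Of the rest, DHX32 fell from 21.3, 22.5 and 22.4 CPM to 11.8, 8.25 and 12.0 CPM (log2 -1.03), with the antisense overlap given above. DDX20, a component of the SMN complex that assembles spliceosomal particles, rose by 1.28, and DDX1, a component of the tRNA ligase complex, rose by 0.35 from the highest level per length of any member in WT input (91.9 FPKM, CPM per kilobase of exon). DDX12P rose by 0.51 while DDX11 fell (log2 -0.25, adjusted p = 0.00516). The DDX11 call was lost without siTDP43 input library 3 (-0.15) and its value was 0.09 with the GC trend removed.

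**Figure D2:**
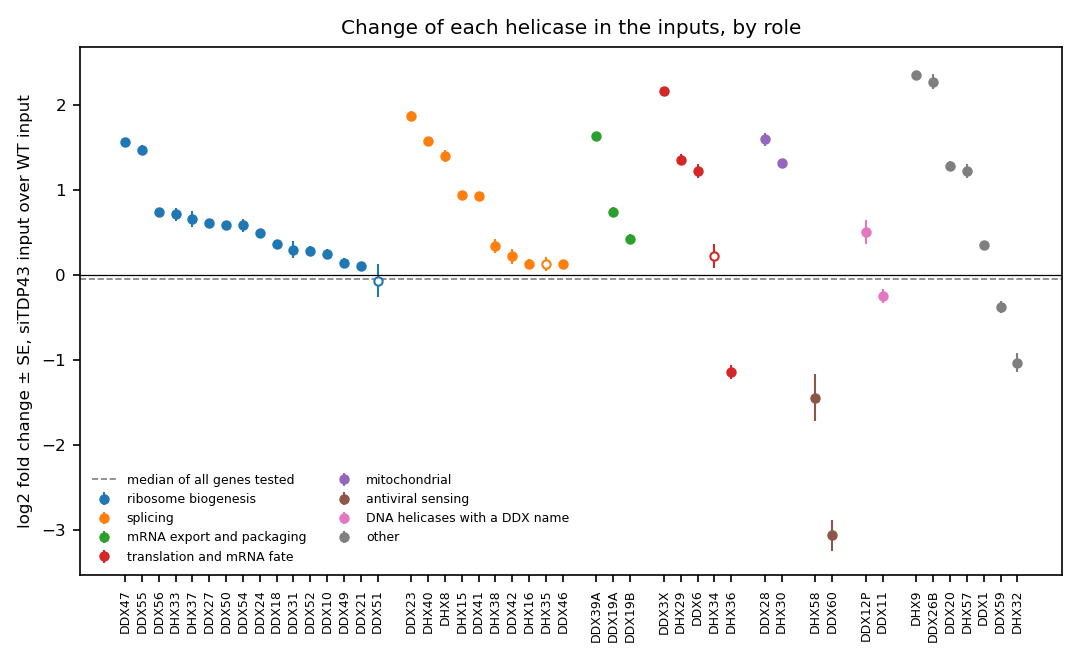
Log2 fold change ± SE of siTDP43 input over WT input for 47 helicases, coloured by role; filled points passed an adjusted p under 0.05 and the dashed line is the median of all genes tested (-0.05). Members of splicing and ribosome biogenesis lie at or above 0, apart from DDX51 at -0.07, while both antiviral members drawn lie below; DDX60L is not drawn because its WT inputs held no count.

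RNA helicases outside the DDX and DHX names were counted as a list for comparison. Of its 17 members tested, 9 were higher and 6 lower (52.9% and 35.3%), with a median log2 of 0.30. SNRNP200, the helicase that unwinds spliceosomal RNA duplexes, rose by 1.35, and UPF1, the helicase of nonsense-mediated decay, was lower (-2.48). IFIH1, a sensor of viral RNA, was lower too (-1.18, SE 0.178). Known partners and activators of the helicases were higher in 16 and lower in 4 of 23 cases (69.6% and 17.4%), against 38.6% and 40.6% of all genes tested. The largest rises of this list were those of GEMIN4, the partner of DDX20 in the SMN complex (1.72), and THOC2, of the export complex (1.55). The 4 lower were ALYREF (-0.79), NKRF (-0.27), PINX1 (-0.26) and NUP214 (-0.24).

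The pull-downs asked which helicase transcripts were recovered above the controls. Within a genotype, a gene was called when it changed more than 2-fold with an adjusted p under 0.05. In WT, 15 of 49 helicases were higher in IP than in input and 12 lower, against 30.2% and 27.3% of 14751 genes, so the shares (30.6% and 24.5%) were near the background. Against IgG, 12 were higher and 11 lower, against 35.2% and 17.8% of genes. With the GC trend removed these counts became 5 and 17, against 27.0% and 29.8% of genes under the same setting. DDX25 and DDX39B are among both the 15 higher over input and the 12 higher over IgG. They passed the low-count filter mainly through the WT IP libraries, where they are high, so their part in these counts supports nothing. The control pull-down differed from input as well, with 16 helicases higher and 11 lower in WT IgG (background 24.4% and 36.6%). The median log2 there was 0.36 over the helicases and -0.39 over all genes. With the GC trend removed these medians were 0.91 and 0.07, and 31.9% of genes were higher and 28.8% lower. The 3 comparisons share libraries, so their values are given side by side and not as support for each other.

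DDX51 (chr12:132621140-132628880), needed for processing of large-subunit ribosomal RNA, stood far above both controls. It had 49.6, 53.5 and 56.9 CPM in WT IP against 4.84, 3.98 and 3.74 CPM in WT input and 1.54 and 1.82 CPM in WT IgG. The log2 fold changes were 3.68 over input (SE 0.117) and 4.95 over IgG (SE 0.195). DHX33, which takes part in transcription of ribosomal RNA, was also high over input, with 187, 208 and 216 CPM in IP and 19.97, 18.11 and 20.15 CPM in input (log2 3.40). Its 2 IgG libraries held 189 and 204 CPM, within the range of the IP. DDX46, an early spliceosome helicase, behaved likewise, with 394, 432 and 438 CPM in IP, 270 and 286 CPM in IgG and 55.4, 56.6 and 58.9 CPM in input. For DHX33 and DDX46 both WT IgG libraries thus lay more than 4-fold above every input.

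Other members were set apart by a near absence from WT IgG. DDX20 had 11.7, 15.4 and 11.9 CPM in IP and 0 and 0.809 CPM in IgG (log2 4.99), yet 39.1, 40.4 and 38.0 CPM in input, so it was called higher over IgG and lower over input. The size over IgG rests on 8 counts in 1 library: the log2 was 3.95 without WT IgG library 1 and 11.43 without library 2. Leaving out library 2 leaves 0 counts, so the fitted size is arbitrary and only a lower bound could be given. DDX41, a helicase of splicing, had 34.7, 32.3 and 36.0 CPM in IP, 0.961 and 1.21 CPM in IgG and 61.0, 59.6 and 60.1 CPM in input. At the other end, DHX32 was lowest over IgG (log2 -3.19), followed by DHX35 (-2.52) and DHX40 (-2.16), and DDX26B was lowest over input (-3.21), followed by DDX47 (-1.89).

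A transcript was called ac4C(+) here when IP passed over both input and IgG in the fit on counts. The study also asks for both controls, but with FPKM values and other tests and limits, so its set can differ. By the count rule 5 helicases were ac4C(+) in WT, against 15.6% of the 14751 genes tested, namely DDX12P, DDX25, DDX39B, DDX51 and DHX38. With limma on log2(FPKM + 1) there were 3, DDX12P, DDX51 and DHX38. DHX38 had 78.7, 74.2 and 75.0 CPM in IP, 17.3, 17.4 and 16.5 CPM in input and 28.4 and 29.7 CPM in IgG (log2 2.16 and 1.34). With the GC trend removed it was no longer 2-fold over IgG (log2 0.50). DDX12P had 18.0, 18.2 and 20.4 CPM in IP, 5.90, 6.84 and 7.03 CPM in input and 1.35 and 0 CPM in IgG. The limit from the sequence it shares with DDX11 applies here. Its log2 of 4.72 over IgG rests on those few reads: it was 3.77 without WT IgG library 2 and 11.96 without library 1, which leaves 0 counts. A size fitted against 0 counts is arbitrary, and only a lower bound could be given. DDX11 was also higher over input (log2 1.04) but not over IgG (0.50). The other two were sparse: DDX39B had 35, 51 and 26 counts in IP, and DDX25, a germ-line helicase, had 12, 28 and 16 counts in IP with 0 in every input. Both passed the low-count filter mainly through the WT IP libraries, where they are high, so their part in the count of 5 supports nothing. DDX25 lost its call without WT IP library 2 or WT IgG library 2 (adjusted p = 0.0688 and 0.173), and with a mean of at least 50 counts required only DDX12P, DDX51 and DHX38 were ac4C(+). Of these 3, DDX12P and DDX51 hold the motif printed above. Over all genes, 22.4% of the 2302 WT ac4C(+) genes hold it, against 19.6% of the 15165 genes of the 17-library fit. DDX11 holds it too and was not ac4C(+), and the motif came from these same libraries.

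**Figure D3:**
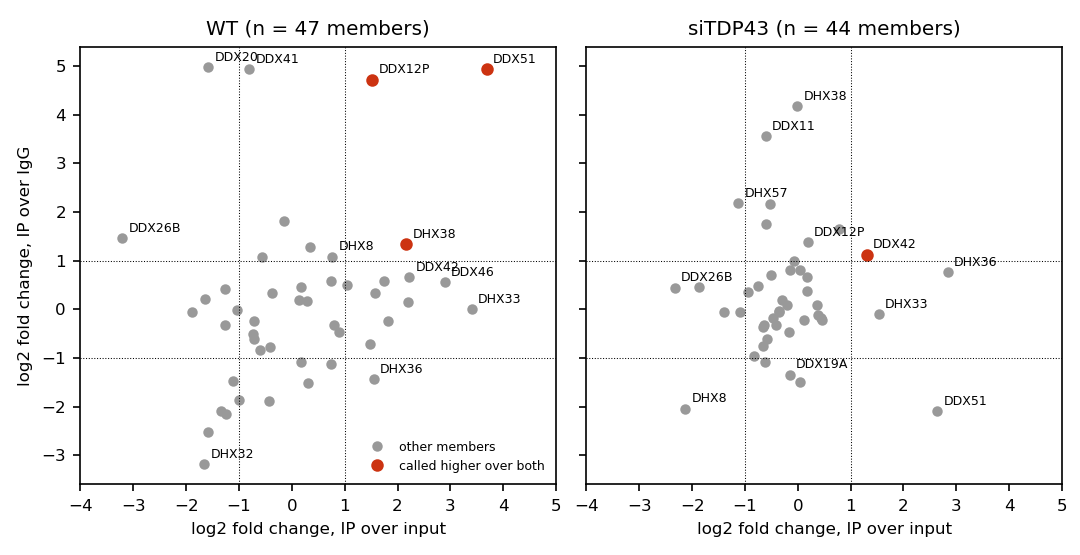
Log2 fold change of IP over input (horizontal) and over IgG (vertical) for each helicase in WT (47 members) and siTDP43 (44 members); dotted lines mark 2-fold and red points were called higher over both. DDX51 lies at the upper right in WT and at the lower right in siTDP43; members with a group at 3 counts or fewer in every library, among them DDX25 and DDX39B, are not drawn.

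In siTDP43, fewer helicases differed between IP and input. Of 47 tested, 4 were higher and 7 lower, against 26.8% and 25.4% of 12746 genes. The 4 were DHX36 (log2 2.84, SE 0.135), DDX51 (2.64), DHX33 (1.53) and DDX42 (1.31). The number lower was 11 when libraries were scaled by total count, where 33.9% of genes were lower. Over IgG, 9 were higher and 6 lower (background 34.0% and 15.0%), and with the GC trend removed 15 were lower, where 29.9% of genes were. In IgG over input, 6 were higher and 16 lower (background 24.7% and 41.0%), and the GC removal turned this split to 16 and 10, with 34.7% and 29.5% of genes. DDX4 is 1 of the 6 lower over IgG and 1 of the 6 higher in IgG over input. It passed the filter only through siTDP43 IgG, where it is high, so its part in both counts supports nothing. DDX60, with no count in siTDP43 IP or IgG, is among those lower in IP over input and in IgG over input. A size fitted against 0 counts is arbitrary.

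DDX42, a helicase of early spliceosome assembly, was the only ac4C(+) helicase in siTDP43, where 10.3% of 12746 genes were ac4C(+). It had 48.5, 46.4 and 45.8 CPM in IP, 21.58, 22.01 and 19.72 CPM in input and 25.0, 18.6 and 17.8 CPM in IgG, and its log2 of 1.12 over IgG is close to the 2-fold limit. The call was lost with total count scaling (0.97 over input), with the GC trend removed (0.37 over IgG) and with limma on log2(FPKM + 1) (0.86 over input). In WT, DDX42 passed over input (log2 2.22) and not over IgG, where its libraries held 41.6 and 62.4 CPM.

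DHX36 had 78.0, 98.4 and 96.6 CPM in siTDP43 IP against 13.9, 13.4 and 15.1 CPM in siTDP43 input, and 60.6, 50.2 and 41.3 CPM in IgG. In WT its IgG libraries, at 258 and 223 CPM, lay above its IP, at 88.2, 93.5 and 92.7 CPM. The IP levels of this mRNA thus lay in the same range in both genotypes while its inputs and IgG lay lower in siTDP43.

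Several members were nearly absent from siTDP43 IgG alone. DDX59, a helicase linked to ciliary signalling, had at most 2 counts in any siTDP43 IgG library and was at least 19.6-fold higher in IP. DHX38 had 0, 1.62 and 1.42 CPM in siTDP43 IgG against 17.3, 23.7 and 16.4 CPM in IP (log2 4.17), and DDX11 had 0.735, 0.809 and 2.85 CPM against 15.99, 20.48 and 20.05 CPM (log2 3.57). With so few IgG reads, the DHX38 value was 3.58 without siTDP43 IgG library 1 and the DDX11 value 4.51 without library 3. Unlike in WT, DHX38 in IP lay at the level of its input, 21.1, 22.1 and 21.1 CPM. DDX60 and DHX58 had no count in any siTDP43 IP or IgG library. DDX4, a germ-line marker, was seen only in IgG, with 4 and 6 counts in WT and 14, 4 and 22 counts in siTDP43.

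The last comparisons asked whether enrichment differed between the genotypes, by the interaction of genotype and pull-down over all 17 libraries (adjusted p under 0.05). Relative to input, enrichment was lower in siTDP43 for 32 of 51 helicases and higher for 9, against 36.3% and 31.5% of 15165 genes. The median log2 change was -0.64 over the helicases and -0.19 over all genes. The 32 include the 3 antiviral members and DDX25, none of which had a count in any siTDP43 IP library. Sizes fitted against 0 counts are arbitrary. DDX25 and DDX60L also had no count in any WT input, so the part of these sparse members in the 32 supports nothing. After removal of the GC trend 26 were lower and 14 higher, against 29.7% and 38.2% of genes, and the medians were -0.24 and 0.11. Because the input of 39 helicases was higher in siTDP43, the denominator of this ratio moved as well: DDX3X had 64.9, 69.7 and 65.8 CPM in WT IP and 238, 239 and 222 CPM in siTDP43 IP, but its change over input was -0.35. Relative to IgG, enrichment was higher for 24 and lower for 13 (background 34.9% and 25.9%). Removing the GC trend gave 19 higher and 19 lower, against 29.9% and 30.4% of genes, so the higher calls no longer outnumbered the lower ones. Both interactions use the same IP libraries.

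By role, enrichment over input was lower for 11 of 16 helicases of ribosome biogenesis and higher for 1. In splicing 6 of 10 were lower and 3 higher. Over all genes tested 36.3% were lower and 31.5% higher. With the GC trend removed 10 of ribosome biogenesis and 4 of splicing were lower, where 29.7% of genes were, so the splicing share was near the background. DHX8 changed by -3.04, DDX46 by -2.60 and DHX38 by -2.32 on the log2 scale. DDX46, for example, had 75.1, 73.7 and 77.9 CPM in siTDP43 IP, far below its WT IP libraries, with inputs of 62.3, 61.5 and 61.4 CPM. The changes upward were led by DHX32 (1.43), DHX35 (1.30) and DHX36 (1.14). All 5 tested helicases of translation and mRNA fate were higher relative to IgG, from 0.68 in DHX29 to 2.26 in DHX36, where 34.9% of all genes were higher. With the GC trend removed 3 were higher, DDX3X did not pass (0.08) and DHX29 was lower (-0.41). DDX51 (-6.98), DDX41 (-5.85) and DDX20 (-5.69) had the lowest changes relative to IgG. The DDX20 value was -4.66 without WT IgG library 1 and -11.66 without library 2. Beside this, the siTDP43 IgG libraries of DDX41 and DDX20 held 114, 96.3 and 111 CPM and 71.7, 87.8 and 102 CPM, while both were near 0 in WT IgG.

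**Figure D4:**
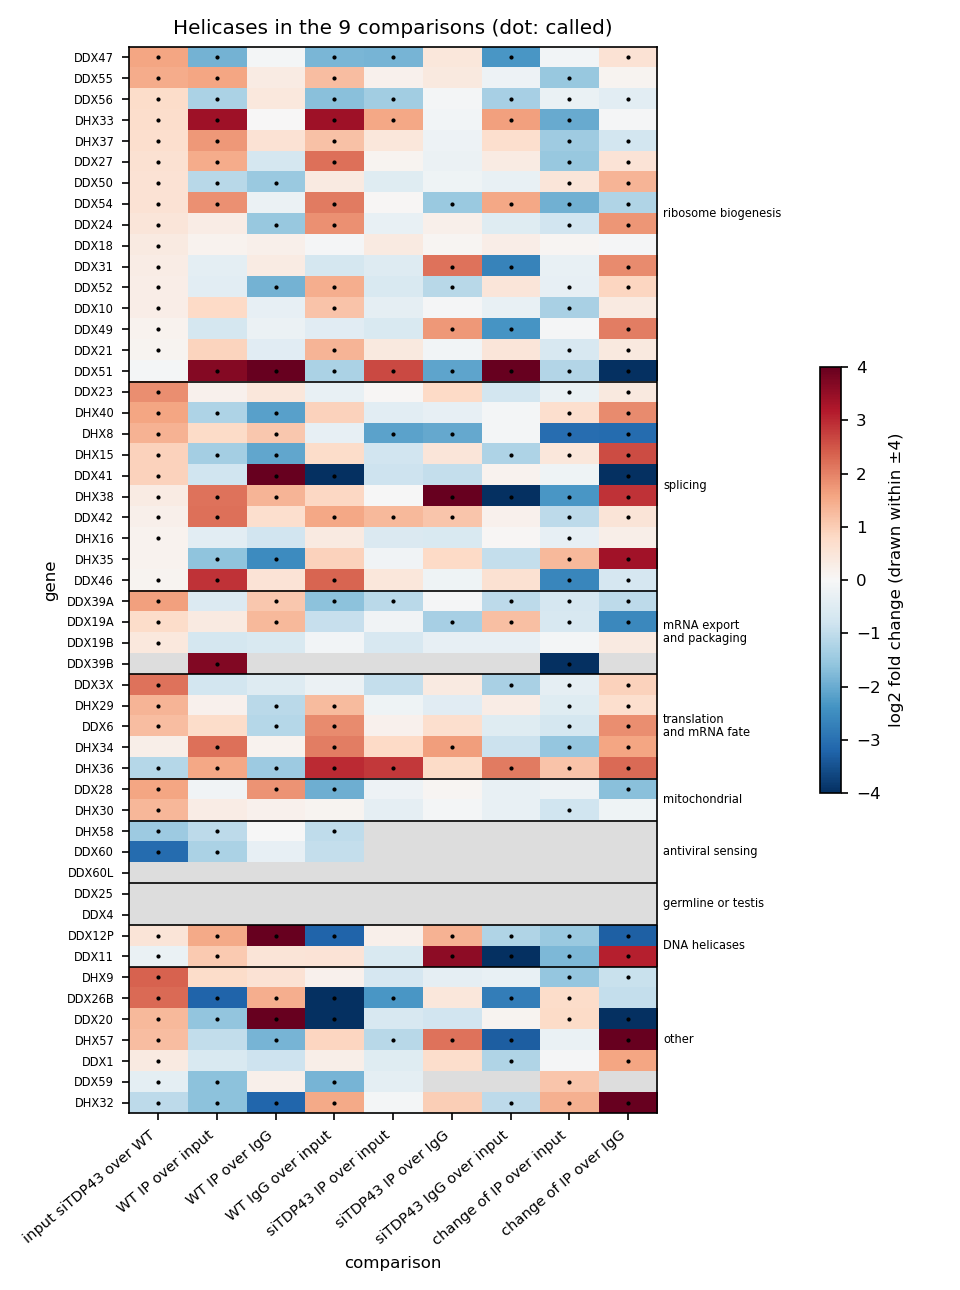
Log2 fold change of 51 helicases (rows, by role) in the 9 comparisons (columns), with colours drawn within ±4 and a dot where the call passed; grey marks comparisons not tested or with a group at 3 counts or fewer in every library. The first column is mostly red, and DDX51, DDX41, DDX20, DHX32 and DHX57 reach the ends of the scale over IgG.

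DDX51 gave opposite calls over IgG in the genotypes. In siTDP43 it had 24.6, 17.9 and 23.9 CPM in IP, 4.82, 3.91 and 3.10 CPM in input and 95.9, 93.1 and 81.5 CPM in IgG. Over input it was higher in both genotypes, with a change of -1.19 (SE 0.22). Over IgG it was called higher in WT (4.95) and lower in siTDP43 (-2.10). Leaving out any one library changed none of its calls within a genotype.

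**Figure D5:**
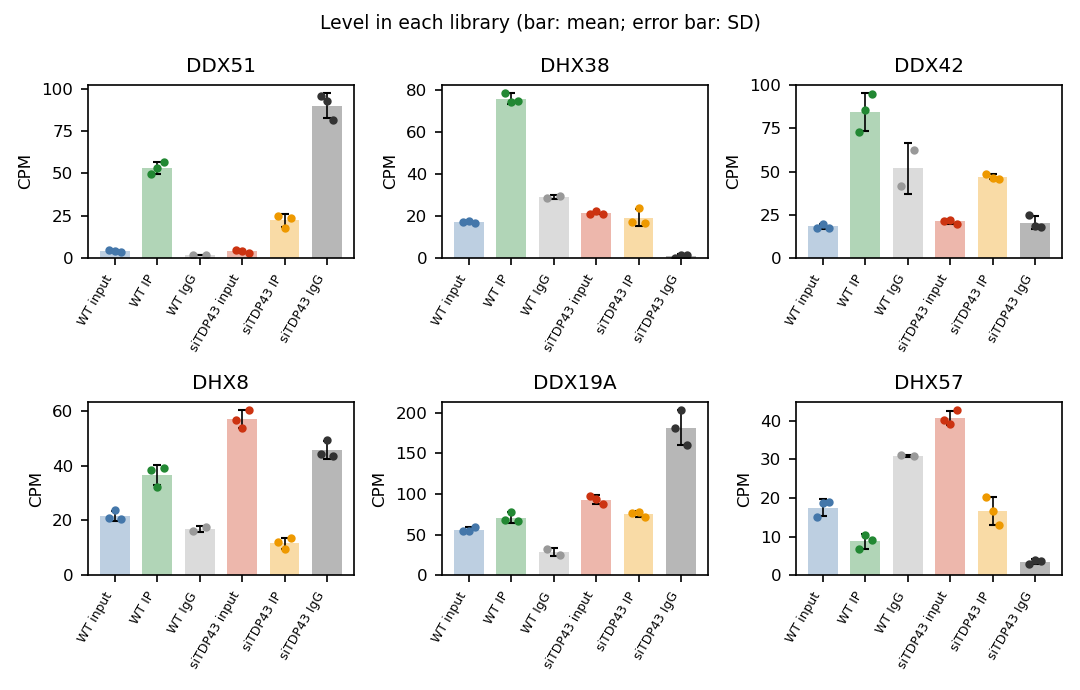
CPM of 6 helicases in each library of the 6 groups; bars are means, error bars SD (n = 3, n = 2 for WT IgG) and points libraries. DDX51, DHX8 and DDX19A are low in WT IgG and high in siTDP43 IgG, DHX57 and DHX38 the reverse, and DDX42 lies above both controls in both IP groups.

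GC content was set beside the changes as a description across genes, which are not independent replicates. In the input comparison Spearman's rho with exonic GC was -0.03 over 48 helicases and -0.32 over 14036 genes. In WT IP over IgG it was 0.45 over 49 helicases and 0.19 over 14751 genes. The helicases in each case share the same libraries, and the part of base composition in the IgG comparisons was not tested beyond the removal of the trend.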

How the data were processed

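The authors prepared SMART-seq2 libraries from poly(A) RNA, trimmed reads with Trim Galore 0.6.7, aligned them with STAR 2.7.10a and counted them per gene with featureCounts 2.0.2. The deposited table holds raw counts without normalization. The methods name hg19 and the labels mm10; on GRCh37, 99.6% of 914 introns of the members had canonical ends. Strand and annotation release are not given in the sources used here. Even counts predominated, so mates seem to have been counted singly, and tests cover counting error and library spread, not molecules.

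Counts were tested with edgeR 4.0.16 (R 4.3.3; TMM, filterByExpr with minimum count 10, two-sided quasi-likelihood F test) over all genes, with Benjamini-Hochberg adjustment. Inputs (6 libraries), WT (8), siTDP43 (9) and interactions (17) were fitted separately. Standard errors are the log2 fold change over the root of F. CPM used TMM factors over 17 libraries, and FPKM divides them by exon length. Where a group had at most 3 counts in every library, a size is given as a bound only, while counts of calls and medians used the fitted values. Alternatives were DESeq2 1.42.0, limma 3.58.1 on log2(FPKM + 1), other scalings and filters, a replicate block, a GC trend removed, and leaving out each library. Fits were tested on simulated data.

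Named were, per comparison, the 3 helicases with the largest rise and fall (mean of at least 100 counts, no overlap), ac4C(+) members, untested members and a list of well-known ones; others named were chosen after their values were seen. The members, role lists and tests were chosen with earlier results of these data known. The spike-in was not used here. 1 further marker gene and 1 further sequence window are not reported here.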

Additional observations from a re-analysis of the deposited data

Results flagged for a closer look

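For 4 helicases IP was called on opposite sides of IgG in the 2 genotypes and the interaction passed as well (edgeR). The change of IP over IgG was -6.98 for DDX51 (log2 4.95 in WT and -2.10 in siTDP43), -3.07 for DHX8 (1.08 and -2.04), -2.57 for DDX19A (1.29 and -1.34) and 4.11 for DHX57 (-1.87 and 2.19). With the GC trend removed, DHX8 (0.43) and DDX19A (0.63) were no longer called over IgG in WT, so DDX51 and DHX57 alone kept opposite calls, while all 4 interactions passed (-6.71 for DDX51, -3.21 for DHX8, -2.70 for DDX19A and 3.37 for DHX57). In each the IgG libraries moved with the result, and in DDX51, DHX8 and DHX57 the IP libraries moved as well. Mean IP in WT and siTDP43 was 53.3 and 22.2 CPM for DDX51 and 36.6 and 11.7 CPM for DHX8. It was 8.72 and 16.6 CPM for DHX57, and 71.0 and 75.3 CPM for DDX19A. Inputs differed as well: mean input in WT and siTDP43 was 21.7 and 56.9 CPM for DHX8 and 56.1 and 93.0 CPM for DDX19A. For DHX57 it was 17.5 and 40.8 CPM, and for DDX51 4.19 and 3.94 CPM. The part of mRNA level in the IgG differences was not tested. DHX8 had 16.0 and 17.6 CPM in WT IgG and 44.1, 49.4 and 43.4 CPM in siTDP43 IgG, and DDX19A had 31.9 and 24.6 CPM against 182, 204 and 160 CPM. DHX57 went the other way, with 31.0 and 30.8 CPM in WT IgG and 2.94, 4.05 and 3.56 CPM in siTDP43 IgG. The siTDP43 IgG libraries were the shallowest, and the part of depth in these differences was not tested. Groups of 2 or 3 libraries were too small for a test of outlying libraries.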

How the results depend on the processing

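The input counts, 39 higher and 6 lower, ranged from 33 to 41 and from 5 to 7 over all alternatives. Scaling by total count gave 11 helicases lower in siTDP43 IP over input, where 33.9% of genes were lower, and 0 ac4C(+) in siTDP43. A single fit of all 17 libraries also gave 11 lower, where 30.7% of genes were. Total count scaling moved the median of all genes in siTDP43 IP over input from -0.09 to -0.43. DESeq2 moved the median change over IgG of all genes from 0.24 to -0.13. A mean of at least 50 counts left 3 ac4C(+) helicases in WT. With a GC trend removed from each library, WT IP over IgG had 5 higher and 17 lower, siTDP43 IP over IgG 15 lower, siTDP43 IgG over input 16 higher and 10 lower, and the change over input 14 higher, with the shares of all genes moving too. There were then 3 ac4C(+) helicases in WT and 0 in siTDP43. DDX21 turned to -0.18 and DDX11 to 0.09 in the inputs. With limma, siTDP43 IgG over input had 3 higher, and 3 helicases in WT and 0 in siTDP43 were ac4C(+). The cause of these shifts was not tested.

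Leaving out each library kept every count of helicases within 1.5 times, with 36 to 38 higher in the inputs, but moved the fitted size of single genes that are near 0 in IgG (DDX11, DDX12P, DDX20, DDX25, DDX59 and DHX38) by more than that. Where 1 WT IgG library remained, it was assumed to vary like the other groups. Same-numbered libraries did not deviate together (r -0.039 to 0.091 over 40 pairs). With the replicate block the inputs had 39 higher and 6 lower, and DDX25 lost its WT call over IgG (adjusted p = 0.075). The depth of siTDP43 IgG, at most 3436811 counts, limits what a low value there shows.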
